A study of Homo sapiens with 3 samples.

Results

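The genes described here are the replication-dependent histone genes, chosen by symbol: H1-1 to H1-5, and every gene whose symbol is H2AC, H2BC, H3C or H4C followed by digits. The deposited table held 60 of them among 19869 genes. The symbol rule names 68 genes, and the other 8 were not analysed here. The 60 genes were 5 of linker histone H1, 15 of H2A, 16 of H2B, 11 of H3 and 13 of H4. In the reference annotation 48 of them lay on chromosome 6, 11 on chromosome 1 and 1 on chromosome 12.

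The study measured RNA in Hep3B, an established line of human liver cancer cells, in 3 groups of 1 library each. The first group was transfected with a pcDNA3.1 plasmid that encodes HKR3, an older name of the telomere-binding zinc finger protein ZBTB48. The second group was transfected with a small interfering RNA named siTERT, after the gene of the catalytic subunit of telomerase, and the third, the control, is labelled NT-Empty with Fugene treatment. All cells were handled with the same Fugene HD reagent, stayed in it for 6 h before the medium was replaced, and differ in no other label. What the control cells received besides the reagent, and the time of harvest, were not given in the sources used here.

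Chromatin packs DNA around an octamer of H2A, H2B, H3 and H4, and H1 binds the linker DNA between octamers. Most histone protein is made in S phase, from clustered genes without introns that are transcribed together while DNA is replicated. Their mRNAs are the main animal mRNAs that end without a poly(A) tail: cleavage follows a conserved stem-loop that the protein SLBP binds, with the help of the U7 small nuclear ribonucleoprotein, and the mRNAs are degraded quickly when replication stops. Some of these genes also give polyadenylated transcripts that run past the stem-loop, mostly in cells that have left the cycle. The libraries were made with a TruSeq stranded mRNA kit, which by its usual protocol takes RNA with a poly(A) tail. The values below therefore describe the histone RNA that such a library held, not all histone RNA of the cells.

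The stem-loop is the sequence that separates the 2 forms of these RNAs. It was found in an annotated transcript of 26 of the 60 genes, in 6 distinct versions, 5′ to 3′, with the 6 bases of each stem arm in capitals and the 4 loop bases in lower case. For 29 genes the annotated transcripts held coding sequence only and could not contain it.
Version of 14 genes, H2BC21, H2AC6, H2AC25, H2BC26 and H3C10 among them: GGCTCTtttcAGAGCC
Version of H4C5, H4C8, H4C11 and H4C16: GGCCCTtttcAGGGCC
Version of H4C9, H4C14 and H4C15: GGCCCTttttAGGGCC
Version of H2BC4, H2BC5 and H3C8: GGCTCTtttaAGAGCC
Version of H3C6: GGCTCTtctcAGAGCC
Version of H2AC11: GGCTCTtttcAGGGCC
Each stem arm is the reverse complement of the other in the first 5 versions. An annotated transcript that was spliced, or that ran more than 100 bases past the stem-loop, was present for 24 of the 60 genes. These 24 are called extended below, and comprised 3 H2A, 9 H2B, 6 H3 and 6 H4 genes.

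Promoters of 4 genes named in the results are shown next, from RefSeq on GRCh38.p14, each 250 bases before to 50 bases after the annotated start, on the gene's own strand. Capitals mark the 4 motifs that were searched on both strands, so that a capital run is a motif or its reverse complement. They were the box CCAAT, which nuclear factor Y binds, the TATA box form TATAAA, the octamer ATTTGCAT, to which POU2F1 binds, and the box AAACACA known from H1 promoters. H2BC21 is shown as an H2B gene higher in the HKR3 library, H2BC3 as one lower in both treated libraries, H1-2 as the most abundant H1 gene, and H4C5 as an H4 gene higher in the HKR3 library that holds none of the 4 motifs. H2BC3 passed the expression filter given below only through its control value and H4C5 only through its HKR3 value, so both are examples only.
H2BC21, chr1:149886633-149886932, minus strand: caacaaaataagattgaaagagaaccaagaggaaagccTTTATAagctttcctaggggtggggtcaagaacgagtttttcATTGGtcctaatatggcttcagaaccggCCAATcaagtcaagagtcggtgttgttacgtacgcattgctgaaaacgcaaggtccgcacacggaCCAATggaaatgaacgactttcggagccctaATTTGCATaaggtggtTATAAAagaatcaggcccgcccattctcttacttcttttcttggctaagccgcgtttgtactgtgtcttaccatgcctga
H2BC3, chr6:26043664-26043963, minus strand: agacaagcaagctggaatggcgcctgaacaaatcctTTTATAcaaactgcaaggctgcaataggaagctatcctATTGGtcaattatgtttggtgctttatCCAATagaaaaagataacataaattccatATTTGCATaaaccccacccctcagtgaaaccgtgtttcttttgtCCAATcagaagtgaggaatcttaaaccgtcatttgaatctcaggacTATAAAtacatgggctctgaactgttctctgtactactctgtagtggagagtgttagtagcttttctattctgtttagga
H1-2, chr6:26056421-26056720, minus strand: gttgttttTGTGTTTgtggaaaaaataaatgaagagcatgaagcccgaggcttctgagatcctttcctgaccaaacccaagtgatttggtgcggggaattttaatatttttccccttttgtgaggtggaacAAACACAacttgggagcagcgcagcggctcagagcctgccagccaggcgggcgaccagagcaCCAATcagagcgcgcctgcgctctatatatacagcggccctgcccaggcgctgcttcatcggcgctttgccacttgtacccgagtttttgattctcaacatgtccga
H4C5, chr6:26204360-26204659, plus strand: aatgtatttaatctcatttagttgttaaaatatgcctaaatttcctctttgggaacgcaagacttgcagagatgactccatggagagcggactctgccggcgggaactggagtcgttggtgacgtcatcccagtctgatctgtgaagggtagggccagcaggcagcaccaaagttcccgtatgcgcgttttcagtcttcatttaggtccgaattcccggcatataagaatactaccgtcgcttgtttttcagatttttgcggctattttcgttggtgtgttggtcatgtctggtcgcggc
Of the 60 genes, 55 matched a RefSeq promoter. CCAAT was in 83.6% of them, against 39.7% of the 27305 gene promoters in the RefSeq set. It was in every H1, H2A, H2B and H3 promoter that matched and in 2 of 11 H4 promoters. TATAAA was in 69.1% of the histone promoters, against 14.0% of all. The octamer ATTTGCAT was in 43.6%, against 2.19% of all. The octamer was in 11 of 14 H2A and 12 of 16 H2B promoters, in 1 of 9 H3 promoters and in none of the H1 and H4 ones. In H2B promoters it began 45 to 149 bases before the start, with a median of 49, and in H2A promoters 98 to 208 bases before, with a median of 192. AAACACA was in 5 of 5 H1 promoters, and in 14.5% of all histone promoters against 6.94% of all genes. No match of one motif overlapped a match of another.

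Each value is given as the authors deposited it and is read as FPKM: fragments for each kilobase of transcript, divided by the size of the library. That unit was inferred from the data and tool names, and the fragment estimates below rest on it. Estimated from the smallest values of long genes, the libraries held about 12200000 fragments for HKR3, 12600000 for siTERT and 11100000 for the control. The deposited FPKM summed to 535516, 579410 and 596536 in the same order. In a transcript of 393 bases, the coding length of several H2A genes, 1 fragment was worth 0.424 FPKM in the HKR3 library, 0.412 in that labelled siTERT and 0.468 in the control. A count of 0 there allows up to 1.27, 1.24 and 1.40 FPKM. In the 2194-base transcript of H2BC21, 1 fragment was worth 0.0411, 0.0399 and 0.0453 FPKM. Ratios of FPKM are given with exact binomial (Clopper-Pearson) 95% intervals from these estimated fragments, taken on the shortest annotated transcript. They cover counting error only, and the depths behind them are estimates. These were reached from 1 fixed starting depth on values of 0.6 to 1.4 fragments, and dependence on that start was not tested. A second estimate took the depth at which the largest share of low values fell within 0.1 of a whole fragment. It was 13400000 for HKR3, 11800000 for siTERT and 11200000 for the control, where only 34.5%, 31.3% and 37.3% of them did. Some values fall this near a whole number at any depth. There is 1 library per group, hence no replicate, no SD and no test, and a gene was called higher or lower when log2(FPKM + 1) differed by at least 1, a 2-fold size rule.

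ZBTB48 stood at 2842 FPKM in the HKR3 library, 4.89 in that labelled siTERT and 4.91 in the control, a log2 difference of 8.91 for HKR3 against control. TERT stood at 4.25, 5.37 and 4.69 FPKM, so it was not lower in the library labelled siTERT, where it differed by 0.16 on the log2 scale. The name of that library is used here only as its label. All 12 hepatocyte markers reached a mean of 1 FPKM. Of the 11 stromal, endothelial and immune markers measured, 6 were at 0 in all libraries and 1, CD14, reached that mean.

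Histone RNA made up a small part of each library. The 60 genes summed to 551 FPKM in the HKR3 library, 375 in that labelled siTERT and 547 in the control, which is 0.103%, 0.0647% and 0.0918% of each library's FPKM. H2BC12 and H1-2 alone held 54.4%, 67.3% and 61.0% of those sums. Together with H2AC6, H2BC5 and H2AC25 they held 77.6%, 84.3% and 79.3%. Of the 60 genes, 51 had a value above 0 in the HKR3 library, 45 in that labelled siTERT and 46 in the control. In bulk RNA, fewer cells of a kind, here cells in S phase, and less RNA per cell cannot be told apart.

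A mean of at least 1 FPKM over the 3 libraries was reached by 38 genes: 3 of H1, 11 of H2A, 12 of H2B, 6 of H3 and 6 of H4. Of these 38, 25 rested on fewer than 20 estimated fragments in every library, 12 on fewer than 10, and 4 on at least 100 in every library. These counts take the shortest annotated transcript of each gene, and longer ones give more for some genes. In the order HKR3, siTERT, control, the longest transcript gives H3C6 146, 72 and 45 fragments. For H4C8 it gives 217, 54 and 97, and for H4C16 42, 15 and 57. The intervals below, taken on the shortest transcript, are wider for such genes. The filter itself can favour a difference: 4 of the 38 passed through a high control value alone and 5 through a high HKR3 value alone. Of the other 22 genes, 7 were at 0 in all libraries, the H2A and H2B genes of the testis H2AC1 and H2BC1 among them, and 15 lay in between with no value above 1.66 FPKM. H2AC15 had 1.56 FPKM in the HKR3 library and 0.839 in that labelled siTERT, from 4 and 2 fragments, and was listed at 0 in the control. H2AC21 was listed at 0 in both treated libraries and had 1.01 FPKM in the control, from 2 fragments.

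**Figure D1:**
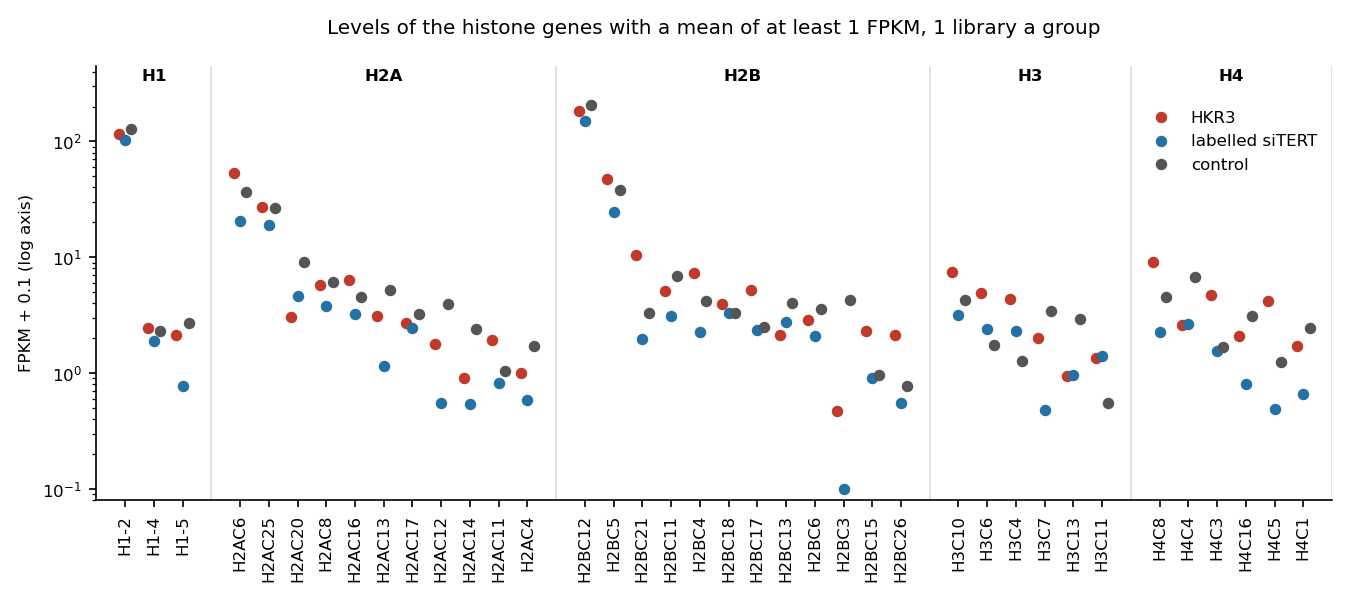
FPKM + 0.1 of the 38 histone genes past the filter on a log axis, by class and in order of mean FPKM, with 1 point per library (left to right HKR3, labelled siTERT, control). H2BC12, H1-2, H2AC6, H2BC5 and H2AC25 stand above the rest, the siTERT point is the lowest in 30 of the 38 genes, and H2BC3 is listed at 0 there.

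In the library labelled siTERT, histone genes were mostly lower than in the control. Of the 38 genes, 10 were at least 2-fold lower and none was higher. Over all 10974 genes tested, 0.483% passed the size rule, with 0.200% lower and 0.282% higher. The 10 genes were H1-5, H2AC12, H2AC13, H2AC14, H2BC3, H3C7, H3C13, H4C1, H4C4 and H4C16, which is 26.3% of the 38. All 10 were weak, the highest mean among them being 3.91 FPKM, of H4C4. At a mean of at least 5 FPKM no histone gene was lower by the rule. Among 35 other genes whose longest transcript was at most 600 bases, 2 were lower and 2 higher in that library. Counting direction alone, 34 of the 38 lay below the control, as did 5776 of all 10974 genes. The median log2 difference was -0.56 against -0.01 over all genes. With no filter, 42 of the 53 genes with any value were lower in that library, 7 were higher and 4 were equal. Of the 10 called genes, 3 reached the mean of 1 FPKM only through the control. Among the 36 genes with at least 1 FPKM in the HKR3 library, which this comparison does not use, 7 were at least 2-fold lower, or 19.4% against 0.164% of all genes chosen so. With 1 library per group, the difference is one between libraries under their labels, and its cause was not tested. TERT RNA was no lower in the library labelled siTERT.

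In the HKR3 library, histone genes went both ways. By the size rule 5 of the 38 genes were at least 2-fold higher than in the control and 4 were at least 2-fold lower. Over all genes, 8.05% passed the size rule, with 5.52% higher and 2.52% lower. The higher ones were H2BC21, H3C4, H3C6, H4C3 and H4C5, or 13.2% of the 38. The lower ones were H2AC20, H2BC3, H3C13 and H4C4, or 10.5%. H4C5 passed the filter only through its HKR3 value, and H2BC3 and H3C13 only through the control. With libraries scaled to the same FPKM sum, 6 genes were higher and 3 lower, H4C8 being added and H3C13 lost. Over all genes the split was 606 higher and 277 lower as deposited, and 860 and 167 after that scaling. The same number of histone genes, 19, lay above and below the control, while of all 10974 genes 5335 lay above and 5639 below. The median log2 difference was -0.01 against -0.02 over all genes. With no filter, 29 of the 53 genes with any value were higher in the HKR3 library and 23 were lower. Among the 26 genes with at least 1 FPKM in the library labelled siTERT, 4 were higher (15.4%, against 5.25% of all genes chosen so) and 3 were lower (11.5%, against 2.52%).

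Counting error, on the shortest annotated transcript, limits most single genes. The intervals were taken for the histone genes only. No share over all genes therefore stands beside their counts, and how unusual these counts are was not tested. The interval of the ratio to the control lay wholly above 1 for 6 genes in the HKR3 library (H2AC6, H2AC11, H2BC21, H2BC26, H3C10 and H4C5) and wholly below 1 for 2 (H2AC20 and H2BC3). Of these, H2AC11, H2BC26 and H4C5 passed the filter only through their HKR3 value and H2BC3 only through the control, so the filter itself favoured their differences, which are given as values only. In the library labelled siTERT it lay wholly below 1 for 12 genes, and above 1 for none: H1-2, H1-5, H2AC6, H2AC12, H2AC13, H2AC25, H2BC3, H2BC5, H2BC12, H2BC21, H3C7 and H4C5. Of the 10 genes called lower there, 5 are among these, and the intervals of the other 5, H2AC14, H3C13, H4C1, H4C4 and H4C16, reached 1. H2AC11 and H2BC26 were named after their values were seen. The comparison of HKR3 with the library labelled siTERT does not use the control. In it 9 of 38 genes were at least 2-fold higher in the HKR3 library and none was lower. They were H2AC6, H2BC4, H2BC21, H2BC26, H3C7, H3C10, H4C3, H4C5 and H4C8. Over all genes, 4.11% were higher and 1.38% lower (5.49% together). The median log2 difference between these 2 libraries was 0.73, against -0.007 over all genes. Of the 38 genes, 33 lay above 0, against 49.4% of all genes, and 12 had intervals wholly above 1. H2BC26 and H4C5 of the 9, and H2AC11 among the 12, passed the filter only through their HKR3 value. Among the 37 genes with at least 1 FPKM in the control, 8 were higher (21.6%, against 3.74% of all genes chosen so) and none was lower. Scaling to the same sum gave 12 histone genes higher and none lower, and turned the split over all genes to 599 higher and 102 lower, against 451 and 151.

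**Figure D2:**
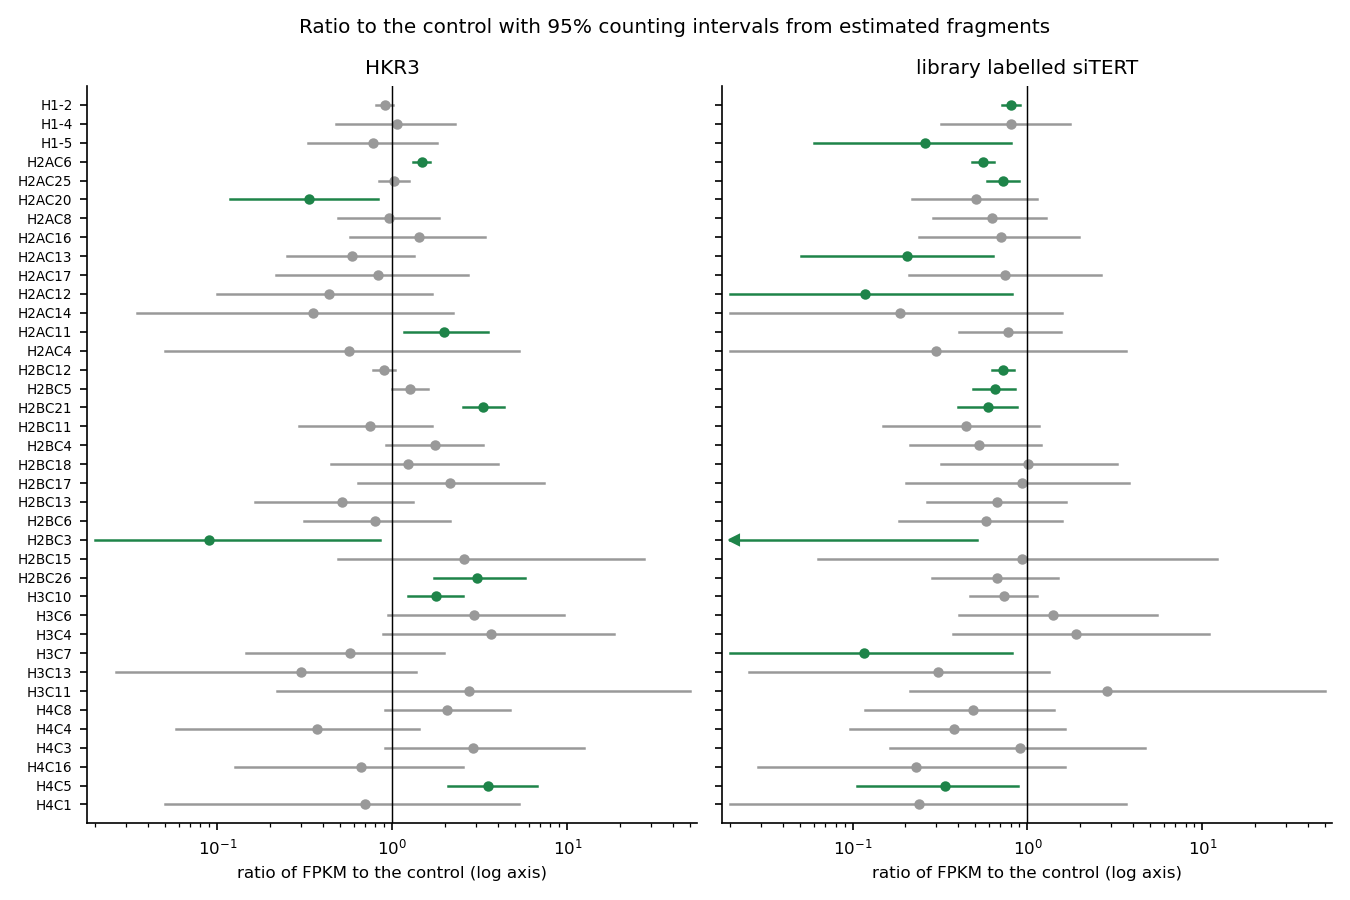
Ratio of FPKM to the control for the 38 genes on a log axis, HKR3 on the left and the library labelled siTERT on the right, with 95% counting intervals as lines, green where they do not reach 1; lines are cut at the edges of the axes, and the arrow marks H2BC3, listed at 0. In the HKR3 library 6 green intervals lie above 1 and 2 below, and in that labelled siTERT all 12 lie below. Intervals were taken for the histone genes only.

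H1, the linker histones, was carried by 1 gene. H1-2, which also gives polyadenylated RNA, had 116 FPKM in the HKR3 library, 104 in that labelled siTERT and 129 in the control. Its ratio to the control was 0.904 (0.808 to 1.01) for HKR3 and 0.805 (0.718 to 0.904) for siTERT, neither of which passed the size rule. H1-4 and H1-5 were far weaker. H1-4 had 2.36, 1.78 and 2.23 FPKM in the same order, with both ratios' intervals spanning 1. H1-5 had 2.02 FPKM in the HKR3 library, 0.673 in that labelled siTERT and 2.59 in the control, from 12, 4 and 14 fragments. It fell in the library labelled siTERT, with a log2 difference of -1.10. Summed over its 5 genes, H1 stood at 122, 107 and 135 FPKM.

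H2A, which pairs with H2B in the nucleosome, was led by H2AC6 and H2AC25, both extended genes. H2AC6, on the list of genes with polyadenylated transcripts, had 53.6 FPKM in the HKR3 library, 20.3 in that labelled siTERT and 36.4 in the control. It was highest with HKR3 and lowest in the library labelled siTERT, with ratios of 1.47 (1.32 to 1.65) and 0.557 (0.484 to 0.643), each short of 2-fold. H2AC25 had 26.8, 19.0 and 26.3 FPKM, with ratios of 1.02 (0.843 to 1.24) and 0.725 (0.585 to 0.892).
H2AC20 fell in the HKR3 library, with 2.97 FPKM there, 4.55 in the library labelled siTERT and 8.93 in the control, from 7, 11 and 19 fragments. Its log2 difference was -1.32 for HKR3, with a ratio of 0.333 (0.119 to 0.830). Of its 31-base words, 50.6% also occur in other genes, so its value is uncertain. H2AC12, H2AC13 and H2AC14 fell in the library labelled siTERT. H2AC13 had 2.99 FPKM in the HKR3 library, 1.05 in that labelled siTERT and 5.13 in the control, and H2AC12 had 1.69, 0.456 and 3.87. H2AC14 had 0.813, 0.436 and 2.32 FPKM. Since H2AC13 and H2AC14 share most of their sequence, their sum is safer than either: it was 3.81, 1.49 and 7.45 FPKM, a log2 difference of -0.81 for HKR3 and -1.76 for siTERT. H2AC8, at 5.69, 3.72 and 5.96 FPKM, and H2AC16, at 6.29, 3.12 and 4.45, did not pass the rule in either comparison. All 11 H2A genes past the filter were below the control in the library labelled siTERT, with a median of -0.81, and 7 of 11 did so with HKR3, the median being -0.20.

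H2B held the most abundant histone RNA. H2BC12 had 184 FPKM in the HKR3 library, 149 in that labelled siTERT and 205 in the control, with ratios of 0.894 (0.779 to 1.03) and 0.725 (0.627 to 0.840). It shares 86.3% of its words with other genes, and summed with its closest copy, H2BC12L, the values were 184, 149 and 206 FPKM. H2BC5 had 47.5, 24.5 and 37.8 FPKM, with ratios of 1.26 (0.992 to 1.60) and 0.649 (0.487 to 0.853). Neither gene passed the size rule.
H2BC21, known for a long polyadenylated transcript, rose in the HKR3 library. It had 10.4 FPKM there, 1.88 in the library labelled siTERT and 3.17 in the control, from 254, 47 and 70 fragments. The ratio was 3.29 (2.52 to 4.35) for HKR3, a log2 difference of 1.45, and 0.593 (0.399 to 0.867) for siTERT, a log2 difference of -0.53. Set against the library labelled siTERT, the HKR3 ratio was 5.54 (4.07 to 7.77). H2BC3 fell in both treated libraries. It had 0.371 FPKM in the HKR3 library, was listed at 0 in that labelled siTERT, and had 4.14 FPKM in the control, from 1, 0 and 8 fragments, so its differences rest on the control. The log2 difference for HKR3 was -1.91. H2BC4 had 7.14, 2.14 and 4.06 FPKM, H2BC11 had 5.02, 2.99 and 6.74, and H2BC18 had 3.88, 3.21 and 3.17, none past the rule against the control. Over the 12 H2B genes past the filter the median was 0.27 for HKR3 and -0.50 for siTERT.

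H3 and H4 form the tetramer at the centre of the nucleosome, and their RNAs were weak. H3C10, an extended gene and the highest of H3, had 7.32 FPKM in the HKR3 library, 3.05 in that labelled siTERT and 4.15 in the control. Its ratio was 1.76 (1.23 to 2.54) for HKR3 and 0.735 (0.470 to 1.14) for siTERT. H3C6 rose in the HKR3 library, with 4.83 FPKM there, 2.32 in that labelled siTERT and 1.65 in the control, although its interval of 0.939 to 9.56 reached 1. H3C4 also rose, with 4.24, 2.19 and 1.16 FPKM, from 11, 6 and 3 fragments, and its interval of 0.878 to 18.6 reached 1. All of the words of H3C4 occur in a second entry of the table, ENSG00000282988, which had 9.19, 2.51 and 3.93 FPKM. The sum of the 2 entries gave a log2 difference of 1.24 for HKR3 and -0.10 for siTERT.
H3C7 fell in the library labelled siTERT, with 1.89 FPKM in the HKR3 library, 0.384 there and 3.31 in the control, from 5, 1 and 8 fragments. H3C13 fell in both treated libraries, for HKR3 not under sum scaling, with 0.842, 0.871 and 2.82 FPKM, from 2, 2 and 7 fragments, and shares 86.4% of its words with other genes. H3C11 had 1.26, 1.30 and 0.456 FPKM, from 3, 3 and 1 fragments. The H3 median was 0.66 for HKR3, with 4 of 6 genes above 0, and -0.01 for siTERT, with 3 of 6 above 0.

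Among the H4 genes, H4C5, which passed the filter only through its HKR3 value, rose in the HKR3 library. It had 4.06 FPKM there, 0.385 in the library labelled siTERT and 1.15 in the control, from 64, 6 and 16 fragments. The HKR3 library was the high one and that labelled siTERT the low one, with ratios to the control of 3.54 (2.07 to 6.72) and 0.336 (0.106 to 0.888). The siTERT difference of -0.63 on the log2(FPKM + 1) scale was short of the rule at this low level. H4C3 also rose in the HKR3 library, with 4.59, 1.45 and 1.59 FPKM, and its interval of 0.910 to 12.4 reached 1. H4C4 fell in both treated libraries, with 2.48, 2.55 and 6.70 FPKM, from 3, 4 and 8 fragments. H4C16 and H4C1 fell in the library labelled siTERT. H4C16 had 1.99, 0.698 and 3.01 FPKM and H4C1 had 1.62, 0.564 and 2.34, all from 6 or fewer fragments on their shortest transcripts. H4C8, the highest of the class, had 9.06, 2.18 and 4.44 FPKM, with ratios of 2.04 (0.906 to 4.72) and 0.491 (0.118 to 1.41). All 6 H4 genes past the filter lay below the control in the library labelled siTERT, with a median of -0.93, and 3 of 6 did so with HKR3, the median being 0.27.

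Summed by class over all 60 genes, the 2 treated libraries differed from the control in different ways. H2A stood at 109 FPKM in the HKR3 library, 57.1 in that labelled siTERT and 100.4 in the control. H2B stood at 274, 192 and 277, H3 at 21.6, 10.8 and 15.4, and H4 at 24.7, 8.04 and 19.2. Each class had a smaller sum in the library labelled siTERT than in the control, with ratios of 0.791 for H1, 0.569 for H2A, 0.693 for H2B, 0.703 for H3 and 0.418 for H4. In the HKR3 library the ratios were 0.899, 1.08, 0.990, 1.41 and 1.29 in the same order. The HKR3 ratios of H1 and H2B turned to 1.001 and 1.10 when libraries were scaled to the same FPKM sum, which moved the median of all genes to 0.12 for HKR3, and to 0.03 for siTERT.

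**Figure D3:**
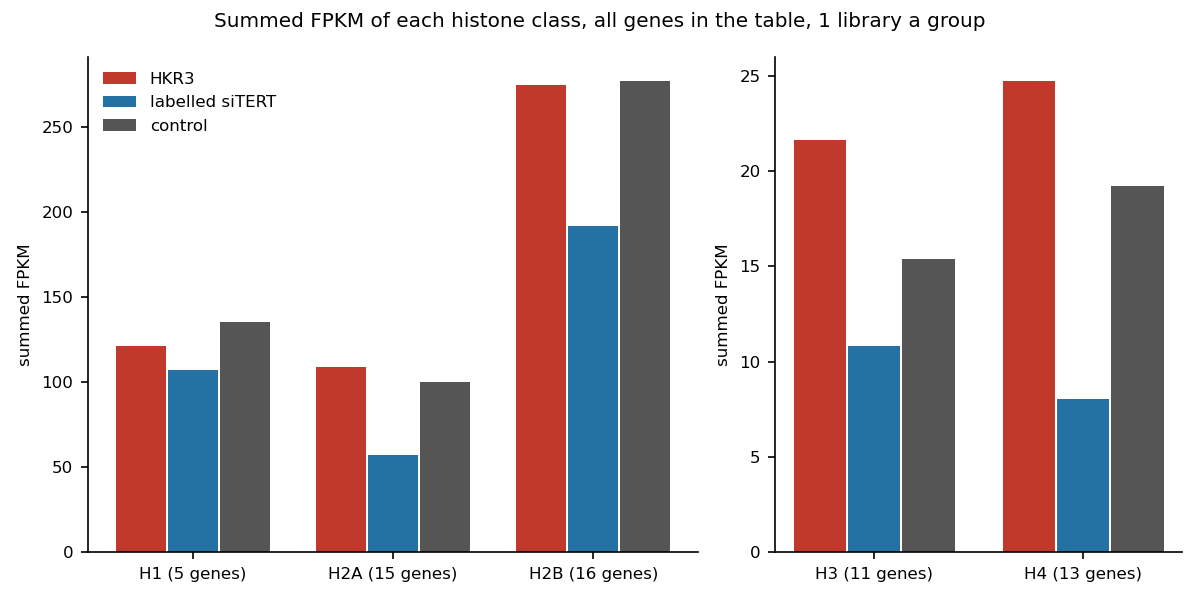
Summed FPKM of the H1, H2A and H2B genes (left) and of the H3 and H4 genes (right, own axis) in 1 library per group, HKR3 left, labelled siTERT in the middle, control right; bars start at 0. The siTERT bar is the lowest in each class, and the HKR3 bar is above the control for H2A, H3 and H4.

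Genes that give polyadenylated RNA were looked at in 2 ways. The first was a list of 6 genes known for it, H1-2, H2AC6, H2BC4, H2BC5, H2BC12 and H2BC21. In the HKR3 library 1 of the 6, H2BC21, was past the size rule and 4 lay above 0, with a median of 0.43. The 32 other genes past the filter had a median of -0.13, 4 being lower and 4 higher. None of the 6 was past the rule in the library labelled siTERT, all 6 lay below 0 with a median of -0.57, and 5 of their intervals lay below 1. The 32 others had 10 lower and none higher, with a median of -0.56.

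The second was the annotation, which can miss such transcripts. For 29 of the 36 genes without an annotated extended transcript, only coding sequence was annotated, so no extension could be seen. H1-2 and H2BC12 of the list are among these 29. In the HKR3 library, 13 of the 16 extended genes past the filter lay above the control, against 6 of the 22 genes with no extended transcript annotated. The medians were 0.62 and -0.30. The filter builds part of this split: 4 of the 16 passed only through their HKR3 value, and of the 22 others 1 did so and 4 passed only through the control. Among genes with at least 1 FPKM in the library labelled siTERT, a filter that uses neither library compared, 9 of 11 extended genes and 6 of 15 others lay above the control, with medians of 0.54 and -0.14. With any value above 0 it was 19 of 23 and 10 of 30. Of the 16 extended genes 3 were higher and none was lower by the size rule, and of the 22 others 2 were higher and 4 lower. Summed over all 24 extended genes, FPKM stood at 194 in the HKR3 library, 87.5 in that labelled siTERT and 139 in the control, ratios of 1.39 and 0.629. Over the 36 others, which include H2BC12 and H1-2, the sums were 358, 288 and 408 FPKM, ratios of 0.875 and 0.704. Scaling to the same FPKM sum brought the HKR3 ratios to 1.55 for the extended genes and 0.975 for the others. Without the list of 6 on either side, the HKR3 ratio was 1.30 over 20 extended genes and 0.775 over 34 others, and the siTERT ratio was 0.670 and 0.472. In the library labelled siTERT the medians of the genes past the filter were -0.55 and -0.69, with 14 of 16 and 20 of 22 genes below 0.

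Transcript length moves with this split, because extended genes are the long ones. Among 35 other genes whose longest transcript was at most 600 bases, 25 lay below the control in the HKR3 library; their median was -0.56, with 1 higher and 7 lower. Of the 35, 21 lay below it in the library labelled siTERT, with a median of -0.12, 2 higher and 2 lower. The part of length in the difference between extended and other histone genes was not tested. FPKM also depends on the transcript models used for counting, and these were not given in the sources used here.

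**Figure D4:**
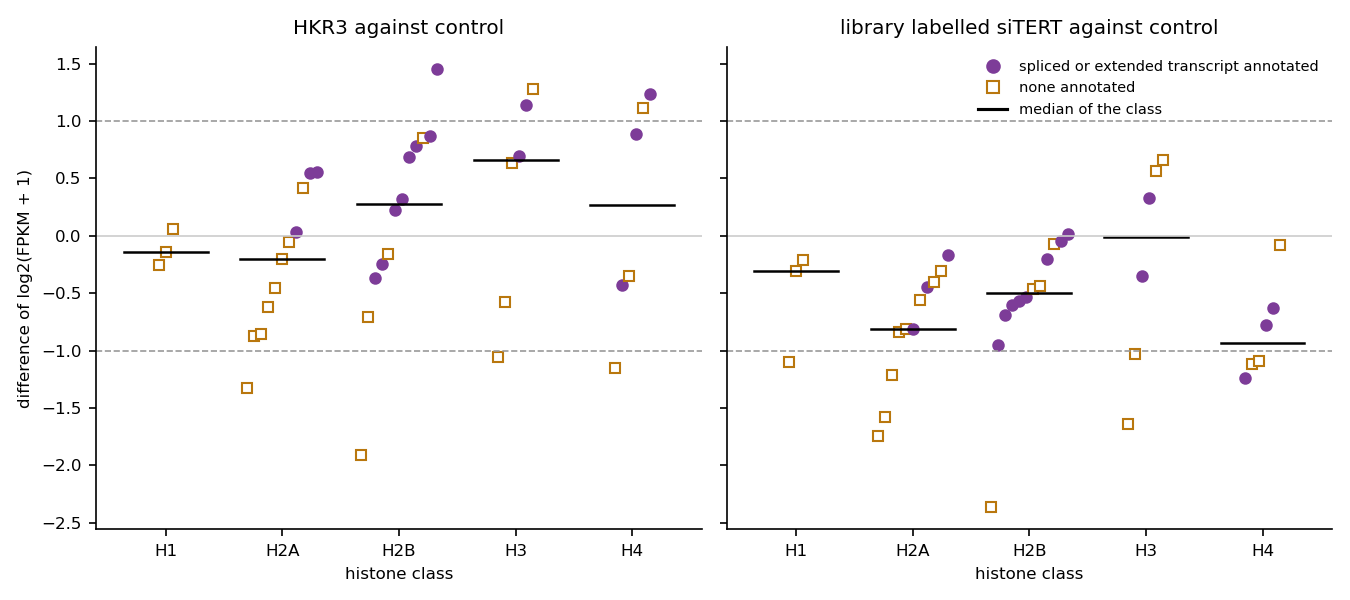
Difference of log2(FPKM + 1) from the control for the 38 genes by histone class, HKR3 on the left and the library labelled siTERT on the right; filled circles are genes with a spliced or extended transcript annotated, open squares have none, black lines are class medians and dashed lines the 2-fold rule. With HKR3, 13 of 16 filled circles and 6 of 22 squares lie above 0; in the library labelled siTERT, 14 of 16 circles and 20 of 22 squares lie below 0.

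Many H2A and H2B genes sit head to head, with their starts close together and the promoter between them shared. Among genes with a RefSeq promoter, 9 such pairs were found, with 192 to 246 bases between the starts. In 6 of them both genes passed the filter. The search could not see pairs of the 5 histone genes without a promoter there, H2AC12 among them. In H2AC6 and H2BC4 both genes lay above the control in the HKR3 library, with log2 differences of 0.54 and 0.68, and both below it in that labelled siTERT, with -0.81 and -0.69. H2AC13 and H2BC13 lay below the control in both treated libraries, with -0.62 and -0.71 for HKR3 and -1.58 and -0.44 for siTERT. H2AC20 and H2BC21, whose starts are 234 bases apart, went opposite ways in the HKR3 library, with -1.32 and 1.45. The promoter of H2BC21 printed above is read from the strand opposite to H2AC20 and covers all of the space between both starts. H2AC11 and H2BC11 also differed in sign with HKR3, with 0.55 and -0.36, as did H2AC17 and H2BC17, with -0.20 and 0.85. H2AC17 rests on 6 fragments in the HKR3 library and 7 in the control and shares 87.1% of its words with H3C12; summed with it, its difference was -0.05. The interval of its ratio, 0.216 to 2.70, and that of H2BC17, 0.639 to 7.32, reached 1. For H2AC25 and H2BC26 the differences were 0.03 and 0.87. H2BC26 had 2.05, 0.449 and 0.670 FPKM, a ratio of 3.05 (1.72 to 5.73) for HKR3. Both genes of all 6 pairs lay below the control in the library labelled siTERT.

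**Figure D5:**
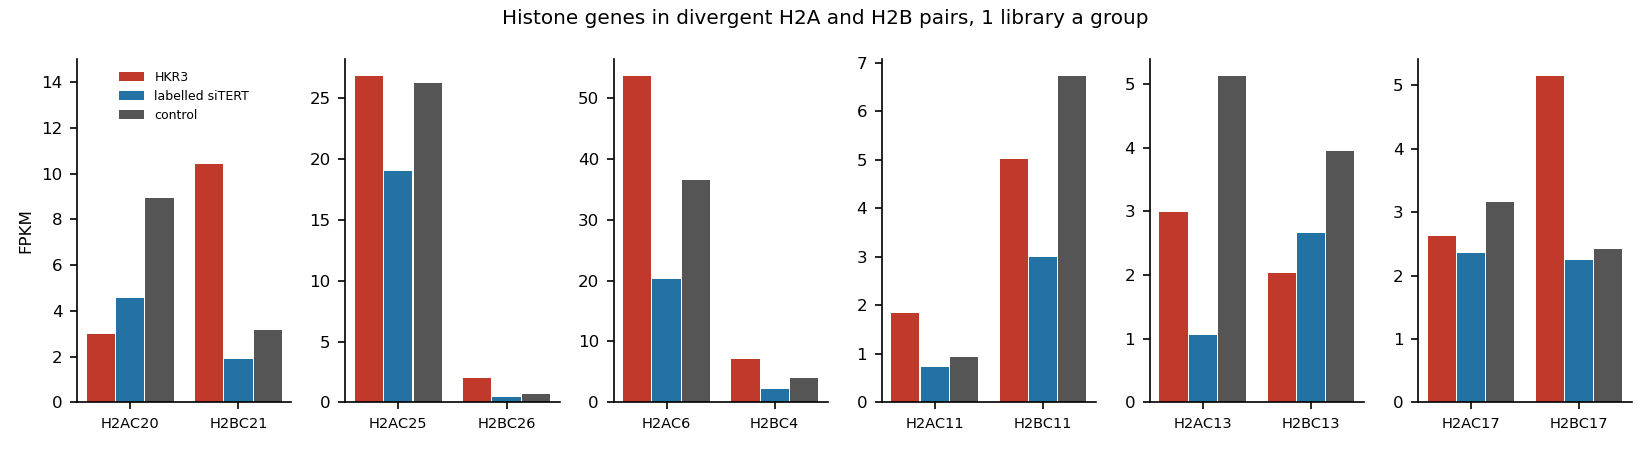
FPKM of the genes in the 6 divergent pairs found among genes with a RefSeq promoter, both members being past the filter. Each pair has 1 panel and axis, with bars from 0 in the order HKR3, labelled siTERT, control. In the first panel the HKR3 bar is the lowest for H2AC20, 2.97 FPKM, and the highest for H2BC21, 10.4 FPKM.

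The replacement histones, made throughout the cell cycle and mostly from polyadenylated mRNA, were measured in 11 of the 12 genes in the table. In the HKR3 library 1 was lower and none higher, with a median of -0.28. That gene was H2AX, the variant phosphorylated at DNA breaks, with 108 FPKM in the HKR3 library, 166 in that labelled siTERT and 221 in the control, a log2 difference of -1.02 for HKR3 that was short of the rule under both other scalings. H2AZ2 had 95.3, 125 and 166 FPKM and H3-3A had 84.7, 119 and 144. In the library labelled siTERT none of the 11 passed the rule, and the median was -0.27, with 9 of 11 below 0. H1-10 had the lowest ratio there, with 78.8 FPKM in the HKR3 library, 49.7 in that labelled siTERT and 70.4 in the control.

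Genes that make and process histone mRNA mostly lay within the 2-fold rule. Of 24 measured genes for its transcription and 3′ end, none passed the rule in either comparison, and the medians were 0.04 for HKR3 and -0.03 for siTERT. ZNF473, a component of the U7 particle, had 13.4 FPKM in the HKR3 library, 6.86 in that labelled siTERT and 6.56 in the control, a log2 difference of 0.93 for HKR3 that passed the rule when libraries were scaled to the same FPKM sum. SNRPE, of the Sm ring, had 92.9, 120 and 151 FPKM, and FIP1L1, of the cleavage and polyadenylation complex, had 37.9, 23.0 and 23.5. HINFP, which binds H4 promoters, had 11.6, 6.84 and 8.88 FPKM. Of 21 genes for export, translation and decay, 1 passed the rule in the HKR3 library, XRN1, a 5′ to 3′ exonuclease, with 4.22, 2.01 and 1.49 FPKM and a log2 difference of 1.07. UPF1, a helicase of histone mRNA decay, had 95.4, 65.1 and 54.7 FPKM, short of the rule. None of these 21 passed in the library labelled siTERT, and the medians were 0.00 for HKR3 and -0.05 for siTERT.

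Histone chaperones, which carry new histones to DNA, did not pass the rule in any of the 25 measured genes. Their medians were -0.20 for HKR3 and -0.06 for siTERT. CHAF1B, of chromatin assembly factor 1, had 2.76 FPKM in the HKR3 library, 4.40 in that labelled siTERT and 6.10 in the control, a log2 difference of -0.92 for HKR3. HJURP, the chaperone of CENP-A, had 38.7, 24.4 and 22.2 FPKM, and TONSL, which binds newly made H4, had 14.6, 24.4 and 16.9.

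The genes of DNA replication, whose activity in S phase accompanies that of the histone genes, were mostly lower in the HKR3 library. Of 35 such genes, 9 were at least 2-fold lower and none was higher, with a median of -0.62 and 32 of 35 below 0. With scaling to the same FPKM sum 6 were lower and none higher. E2F2, a transcription factor of S phase entry, had 1.84 FPKM in the HKR3 library, 6.35 in that labelled siTERT and 6.93 in the control, a log2 difference of -1.48. POLA2, of DNA polymerase alpha, had 3.87, 9.57 and 12.1 FPKM, and CCNE1, cyclin E1, had 2.96, 7.85 and 9.58. In the library labelled siTERT none of the 35 passed the rule, with a median of -0.17 and 28 of 35 below 0. GINS2, of the replicative helicase, had the largest difference there, with 10.8 FPKM in the HKR3 library, 20.6 in that labelled siTERT and 28.9 in the control, a log2 difference of -0.47. Set beside the histone genes, the medians were -0.62 for replication genes and -0.01 for histone genes in the HKR3 library, and -0.17 and -0.56 in that labelled siTERT. No test of these differences between lists was possible with 1 library per group.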

How the data were processed

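The authors deposited 1 table of values per gene for the 3 libraries, read here as FPKM. The tools named in the submitters' processing notes are STAR 2.5.0, Cufflinks and Cuffdiff 2.2.1, and the build is hg19. Strand use, filters, scaling and annotation were not given in the sources used here. A gene name table matched 19310 of 19869 identifiers to symbols. Differences of log2(FPKM + 1) were taken over the 10974 genes that averaged at least 1 FPKM, with python 3.11.15, pandas 2.3.3 and scipy 1.17.1. The size rule was 2-fold, and the method was tested on simulated data. Fragments were estimated from the FPKM worth of 1 fragment in 60 to 68 low genes of a single transcript of at least 1500 bases, assuming fragments of 200 bases. Transcripts were GENCODE release 29 on GRCh38, another build than that of the table, so no position of the table is given. A gene was uncertain when at least 50% of its 31-base words occurred in another gene, which held for 14 of the 60 genes and 7 of the 38. Stem-loops were searched as the 16-base consensus with 1 mismatch allowed. The planned comparison of proteins was not made, since no protein table was used here.

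The members and gene lists were chosen with earlier results of these data known. Named were the 6 highest genes of each class by mean FPKM, all past the size rule, all on the polyadenylated list, genes below 1 FPKM on average that were listed at 0 in one library and above 1 in another, and up to 3 genes of each related list with the largest difference in each comparison with the control. H2AC11, H2AC17, H2BC13, H2BC17 and H2BC26 were added to these once their values had been seen. Alternatives were pseudocounts of 0.1 and 5 FPKM, no filter or a mean of at least 5 FPKM, scaling to the same FPKM sum or by the median ratio, leaving out uncertain genes, the split from the annotation and, added after seeing the data, a filter on the library outside the comparison.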

Additional observations from a re-analysis of the deposited data

How the results depend on the processing

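Medians and ratios of all histone genes, of each class and of genes on and off the polyadenylated list were recomputed under the alternatives. Of these, 129 kept their direction and their side of the 2-fold rule, 16 reversed and 3 passed the rule only under the alternative. For the related lists and the extended split, 75 medians stayed the same in this sense and 1 reversed. Of the counts past the rule for all histone genes and for genes on and off the list, 63 were equal to the main count. Another 25 differed but within 1.5 times of it, and 24 moved further. Of the counts for single classes and related lists, 225 were equal, 9 differed within 1.5 times and 42 moved further. The lower siTERT median over all histone genes kept its sign in every setting tried. The HKR3 median, close to 0, did not: it became 0.14 with the filter on the library outside the comparison, 0.031 at a mean of at least 5 FPKM, 0.11 with no filter, 0.011 with median-ratio scaling, 0.12 with sum scaling and 0.23 without uncertain genes; its count of lower genes in that last setting was 2. For genes off the polyadenylated list it became 0.045 with the filter on the outside library and 0.059 with no filter. Sum scaling turned the HKR3 median of H1 to 0.0096, the log2 ratio of H1 sums to 0.0019 and that of H2B sums to 0.14 (0.012 with median-ratio scaling). The siTERT median of H3 became 0.33 with the filter on the outside library, 0.018 with a pseudocount of 0.1 FPKM, 5.0e-05 with median-ratio scaling and 0.020 with sum scaling, which also turned that of the transcription and 3′ end list to 0.0026. A pseudocount of 0.1 FPKM gave 10 higher genes in the HKR3 library, 9 of them off the list, 1 higher in that labelled siTERT, also off the list, and 19 higher for HKR3 against siTERT; the H3 median for HKR3 was 1.05, the H4 median for siTERT -1.36 and the median of HKR3 against siTERT 1.01. With 5 FPKM no gene passed against the control and 2 passed for HKR3 against siTERT. At a mean of at least 5 FPKM, 1 gene was higher and 1 lower in the HKR3 library (0 and 1 off the list), 0 lower in that labelled siTERT, on or off the list, and 3 higher for HKR3 against siTERT. With the split from the annotation, 3 extended genes and 2 others were higher with HKR3, and 1 extended gene was lower in the library labelled siTERT. The cause of these changes was not tested. No paired analysis was possible because each group has 1 library. Depth limits many genes: on the shortest annotated transcript, 25 of 38 rest on fewer than 20 estimated fragments in every library. Longer transcripts give more fragments for some of them.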
